A study of Mus musculus with 16 samples.

Results

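The genes described here, whose mRNA is known to follow the YAP/TAZ-TEAD and MRTF-SRF transcription factors, were followed in mouse embryonic stem cells (mESCs) depleted of RUVBL2, an ATPase of the AAA+ family that acts with RUVBL1. They were Ccn1, Ccn2, Amotl2, Tagln, Myl9, Tpm1, Cnn1, Acta2, Actb and Vcl, and they were taken by symbol, 10 of the 55335 genes in the table. The set was chosen with earlier results of these data known. Its counts and medians, set beside those of all genes, are therefore a description only. All libraries came from V6.5 mESCs that were homozygous for RUVBL2 tagged with mAID, a degron that makes the protein sensitive to auxin, and GFP, and that expressed OsTIR1, the plant F-box protein that recognises the degron, from a Tet-ON transgene. The tagged cells were grown as clones, so every condition shares the tag, the OsTIR1 transgene and the origin of the line. Mock cells were untreated, the 0 h cells had received 2 µg/ml doxycycline (Dox) for 24 h, and the others then received 500 µM auxin as well, over 0.5, 1, 6, 12, 24 or 48 h. There were 2 poly(A) RNA-Seq libraries for every one of the 8 conditions, 16 in all. The study's methods call them technical duplicates, so every p-value given rests on a spread among libraries that may be purely technical. No library had doxycycline without auxin beyond 0 h, so the times of doxycycline and of auxin grew together and their effects cannot be told apart after 0 h.

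YAP and TAZ are coactivators that enter the nucleus when the Hippo kinases LATS1 and LATS2 do not phosphorylate them, and there they act through the DNA-binding TEAD proteins. Serum response factor (SRF) binds the CArG box, and its coactivators MRTF-A and MRTF-B are held in the cytoplasm by monomeric actin, so that MRTF-SRF target genes follow the assembly of actin filaments. Both systems respond to cell shape and adhesion, and they share target genes. Ccn1 and Ccn2 encode secreted matricellular proteins, Amotl2 encodes an angiomotin family scaffold that binds YAP, Tagln (transgelin), Cnn1 (calponin) and Acta2 (smooth muscle alpha-actin) are widely used as smooth muscle markers, Myl9 encodes a regulatory light chain of myosin II, Tpm1 encodes a tropomyosin that coats actin filaments, Actb encodes the cytoplasmic beta-actin, and Vcl encodes vinculin, which links adhesion complexes to actin.

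The promoters of the members were searched for the binding motifs of both systems, because the genes are grouped by the factors that bind them. RefSeq windows of GRCm38.p6, from 250 bases before to 50 bases after a transcript start, were matched by symbol for 7 of the 10 members, and Ccn2, Tagln and Actb were not matched. The TEAD motif searched was GGAATG on both strands (CATTCC on the strand shown). For SRF only the strict CArG box was searched, CC and GG with only A or T between, a pattern that covers both strands. No match of the 2 motifs overlapped in a member. GGAATG was found in 5 of the 7 windows (Ccn1, Acta2, Tpm1, Amotl2 and Vcl) and in 14.7% of all 32851 windows, and a CArG box in 2 of the 7 (Myl9 and Vcl) and in 1.63% of all windows. The stretches of 30 bases around the matches of the members called at 1 h or from 12 h of auxin are given here, 5′ to 3′ on the strand of the gene, with the motif in capitals.
Ccn1, chr3:145650071-145650100, minus strand: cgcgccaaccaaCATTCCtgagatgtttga
Amotl2, chr9:102717727-102717756, plus strand: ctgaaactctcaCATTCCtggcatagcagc
Tpm1, chr9:67049252-67049281, minus strand: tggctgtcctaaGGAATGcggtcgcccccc
Vcl, chr14:20929243-20929272, plus strand: gcccctcccttgGGAATGggggcggggcgg
Vcl, chr14:20929161-20929190, plus strand: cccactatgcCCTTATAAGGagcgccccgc
Myl9, chr2:156775293-156775322, plus strand: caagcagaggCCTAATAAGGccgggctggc
Counted from the transcript start, with bases before it negative, the motif began at -103 in Ccn1, at -65 in Amotl2 and at -56 in Tpm1. In Vcl GGAATG began at -143 and the CArG box at -227, and the CArG box of Myl9 began at -161. A match describes letters in a window and is not evidence of binding. The windows of Amotl2, Tpm1, Acta2, Myl9 and Cnn1 lie at starts inside the genes as GENCODE M21 annotates them. The stretches shown for Amotl2 and Tpm1 lie within the annotated genes.

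The levels of the members spanned 4 orders of magnitude, and the 2 most typical smooth muscle genes were close to absent. Per gene length, Actb had the highest mean over the 16 libraries, 1919 TPM (the authors' values, scaled by gene length and library total). Amotl2 followed with 83.8 TPM, Vcl with 58.5, Ccn2 with 36.8 and Tpm1 with 36.5, and the means per condition of each of these overlapped with those of its neighbour in the order. Tagln had 7.78 TPM, Ccn1 6.78 and Myl9 5.20, whose means per condition overlapped likewise, and Cnn1 and Acta2 came last with 0.394 and 0.117. Cnn1 had 1 to 10 expected counts per library and Acta2 0 to 3. These 2 genes did not pass the filter on low counts, so that 8 of the 10 members were tested. Tagln and Myl9, at 0 to 104.52 counts per library, passed it through the conditions in which they were high.

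The gene counts summed to 11666732 to 13924958 per library, and within a condition the correlation of log2 CPM (counts scaled to the library total) between its 2 libraries was 0.9933 to 0.9946 across genes, while their counts differed with 1.58 to 2.78 times the variance of counting noise. The 12 markers of mESCs summed to 5919 to 7752 CPM in every library. The growth protocol places irradiated mouse embryonic fibroblasts in the wells, and the methods state that cells were harvested off these feeders. Of the defining fibroblast genes, Col1a2, Col3a1, Dcn, Lum and Postn had 0 to 3 counts per library, and Col1a1 had 2 to 16. The summed level of the 16 fibroblast markers was 11.5 to 12.5 CPM in Mock, 13.9 to 16.1 at 0 h, and 21.9 to 26.7 from 6 h on, and 6 of the 16 passed the filter. Of the defining smooth muscle genes, Myh11 had 0 to 11 counts, while Des had 111 to 204 and Smtn 281 to 603.97. These are bulk samples, in which fewer cells of a type and less RNA per cell cannot be told apart.

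Calls came from the quasi-likelihood test of edgeR on 15155 genes and needed a fold change over 1.5 with padj, the p-value after Benjamini-Hochberg adjustment, under 0.05, and "rose" and "fell" are used of called genes only. All calls of members up to 1 h were upward, and those against 0 h from 6 h on were downward except Ccn2 at 48 h. At 0 h against Mock, which shows the step of doxycycline alone, 3 of the 8 tested members rose (Ccn1, Tagln and Amotl2), where 5.19% of all tested genes rose and 4.24% fell. The median log2 fold change of the 8 was 0.45, beside -0.01 over all genes. At 0.5 h against 0 h edgeR called 0 of the 8, where 0.455% of genes rose and 0.277% fell. At an unadjusted p under 0.05 there were 6 members, and 5 of them had a padj under 0.05, all below the fold of 1.5. Of these, Ccn2 and Amotl2 were higher and Tpm1, Actb and Vcl lower. DESeq2 or limma called 0. The median log2 fold change of the 8 was -0.15 at 0.5 h and 0.03 at 1 h. At 1 h 3 of the 8 rose (Ccn1, Ccn2 and Amotl2), where 0.666% of all genes rose and 0.541% fell. At 6 h Ccn1 and Ccn2 fell, 2 of 8, where 5.7% of all genes fell and 10.1% rose.

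The later conditions held the largest number of members called. At 12 h 4 of the 8 fell (Ccn1, Myl9, Actb and Vcl), where 13.2% of all genes fell and 14.8% rose, and the median of the members was -0.58, beside 0.00 over all genes. At 24 h 7 of the 8 fell, all but Amotl2, where 20.3% of all genes fell and 20.2% rose, and the median of the members was -1.37 beside -0.02. At 48 h 5 of the 8 fell (Tagln, Tpm1, Myl9, Actb and Vcl), where 17.6% of all genes fell, and Ccn2 rose, as did 17.9% of all genes. The median at 48 h was -0.92 beside 0.01, and it was the same with Myl9, which had 0 counts there, set to its bound. These comparisons share the 0 h libraries and are not independent of each other. Between neighbouring times, from 6 to 12 h Myl9 and Vcl fell (8.83% of all genes) and Ccn1 rose (7.92%), from 12 to 24 h Ccn2 and Tagln fell (10.8%; 8.99% rose), and from 24 to 48 h Ccn1 and Ccn2 rose (12.2%) and Tagln and Myl9 fell (12.3%).

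**Figure D1:**
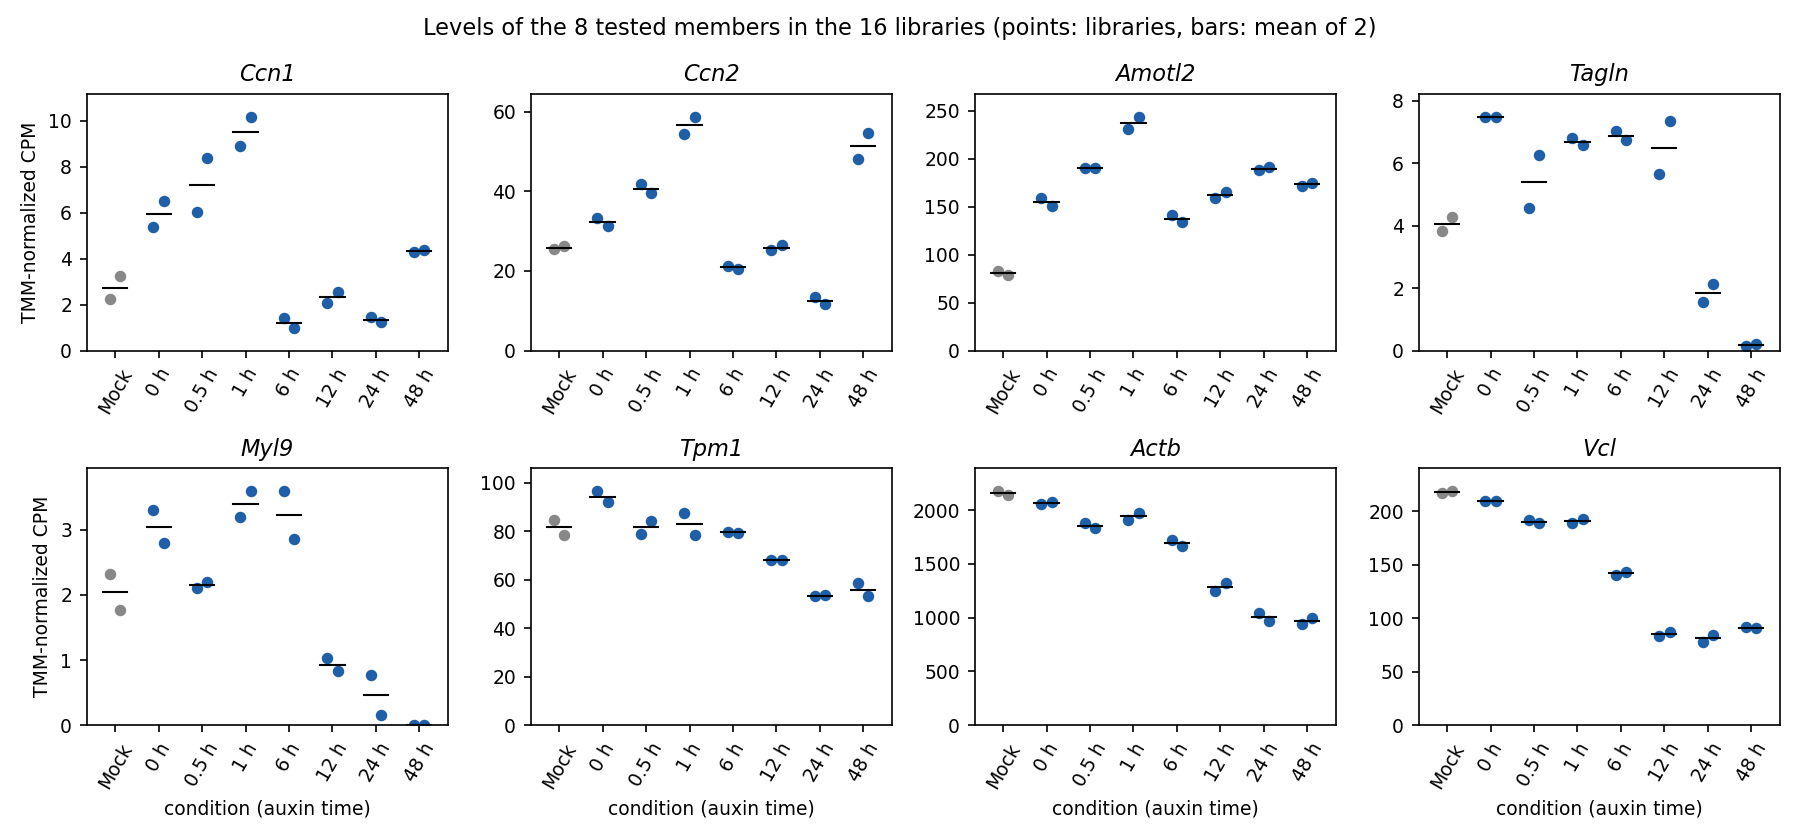
TMM-normalized CPM (vertical axes, linear from 0) of the 8 tested members in each of the 16 libraries, by condition; points are libraries, bars the mean of 2, and grey marks Mock. Ccn1, Ccn2 and Amotl2 peak at 1 h, whereas Myl9 and Tagln reach 0 and 0.162 to 0.202 CPM at 48 h.

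Ccn1 and Ccn2, which encode secreted matricellular proteins, rose at 1 h of auxin, fell at 6 h and 24 h, and rose again between 24 and 48 h. Fold changes are given ± SE, and values of single libraries as replicate 1/replicate 2. Ccn1 (ENSMUSG00000028195.4, chromosome 3 of GRCm38 from 145646976 to 145649981, minus strand) had 2.24/3.23 CPM in Mock, 5.37/6.49 at 0 h, 6.02/8.36 after 0.5 h, and 8.88/10.2 after 1 h. It then had 1.42/1.00 after 6 h, 2.06/2.57 after 12 h, 1.44/1.26 after 24 h, and 4.30/4.38 after 48 h. Both libraries at 6 and 24 h lay below both of Mock, and those at 1 h above every other library. The log2 fold change in edgeR at 0 h against Mock was 1.11 ± 0.23 (padj = 0.000551). With 0 h as the base it was 0.68 ± 0.19 (padj = 0.0223) at 1 h, -2.29 ± 0.27 (padj = 2.27e-07) at 6 h, -1.36 ± 0.24 (padj = 3.72e-05) at 12 h and -2.13 ± 0.27 (padj = 1.94e-07) at 24 h. At 48 h it was -0.45 ± 0.21 (padj = 0.0707) and was not called. The step from 24 to 48 h was 1.68 ± 0.29 (padj = 2.67e-05), and that from 6 to 12 h was 0.93 ± 0.32 (padj = 0.0214).

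The 1 h call of Ccn1 rested on each of its 4 libraries. Without replicate 1 or 2 of 0 h the log2 fold change was 0.55 (padj = 0.204) or 0.82 (padj = 0.0507) in edgeR, and without replicate 1 or 2 of 1 h it was 0.78 (padj = 0.0549) or 0.58 (padj = 0.160). The 6 to 12 h step of Ccn1 was not called without 6 h replicate 2 (0.70, padj = 0.169) or without 12 h replicate 2 (0.76, padj = 0.150), and DESeq2 on 16 libraries gave 0.94 (padj = 0.0693). Ccn1 had 14 to 119 counts per library, and at 6 h its sum of 33 counts against 163 at 0 h was a ratio of 0.204, with an exact 95% interval of 0.136 to 0.297 that covers counting error only.

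Ccn2 (ENSMUSG00000019997.11, chromosome 10 from 24595442 to 24598683, plus strand) was more abundant and was measured with less error. Its level was 25.6/26.2 CPM in Mock, 33.4/31.2 at 0 h, 41.8/39.6 after 0.5 h, and 54.4/58.7 after 1 h. Later it was 21.3/20.5 after 6 h, 25.3/26.5 after 12 h, 13.4/11.6 after 24 h, and 48.0/54.7 after 48 h. The 2 libraries at 24 h were the lowest of the 16, and those of 1 and 48 h were the highest 4, overlapping each other. In edgeR the log2 fold change of Ccn2 against 0 h was 0.81 ± 0.08 (padj = 1.42e-07) at 1 h, -0.63 ± 0.09 (padj = 3.69e-06) at 6 h, -1.37 ± 0.10 (padj = 1.51e-11) at 24 h and 0.67 ± 0.08 (padj = 6.96e-08) at 48 h. From 24 to 48 h Ccn2 rose 4.11-fold (log2 fold change 2.04, SE 0.09, padj = 1.50e-14). The values of 0.32 at 0 h against Mock and 0.33 at 0.5 h against 0 h were below the fold threshold. The call at 6 h was lost without 0 h replicate 1 (-0.58) and that at 48 h without 48 h replicate 2 (0.57), both just under the threshold.

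Amotl2 (ENSMUSG00000032531.15, chromosome 9 from 102716672 to 102733418, plus strand) shared the early rise of the CCN genes and was the tested member that did not fall at any time. It had 83.2/78.6 CPM in Mock, 159/150.3 at 0 h, 190.7/189.8 after 0.5 h, 231/244 after 1 h, 141/134 after 6 h, 159/166 after 12 h, 188/191 after 24 h, and 172/175 after 48 h. The lowest libraries after Mock were those of 6 h, and all libraries with doxycycline lay above both of Mock. The log2 fold change of Amotl2 in edgeR was 0.94 ± 0.05 (padj = 7.83e-13) at 0 h against Mock and 0.62 ± 0.04 (padj = 9.61e-10) at 1 h against 0 h. At 6 h against 0 h it was -0.17 ± 0.05 (padj = 0.00421), and at 24 h 0.29 ± 0.04 (padj = 3.40e-06), both under the fold threshold. The 1 h value was close to that threshold, and without 0 h replicate 2 or 1 h replicate 2 it was 0.58 in each and not called.

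**Figure D2:**
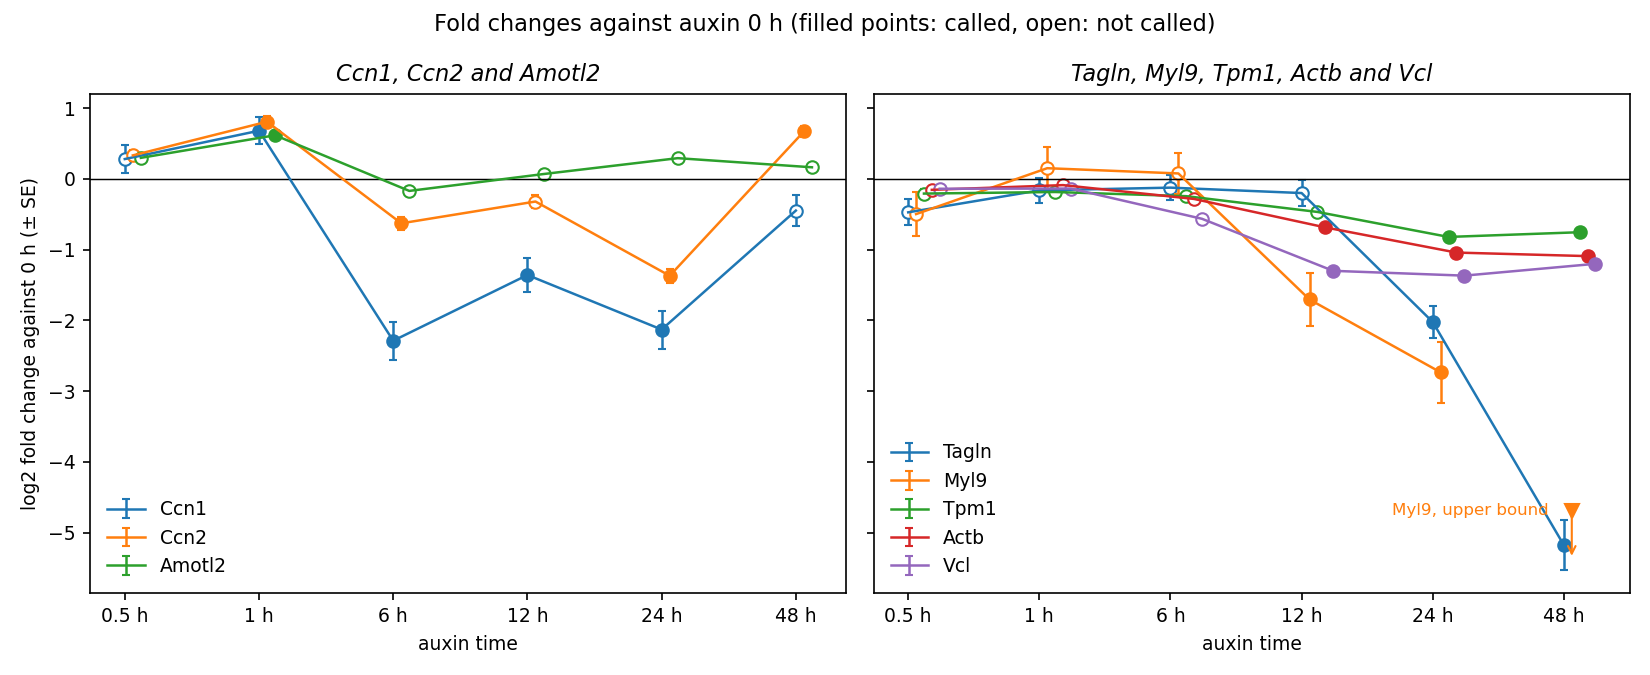
Log2 fold change against 0 h (vertical axis, ± SE from edgeR) at each auxin time (horizontal axis, not to scale) for Ccn1, Ccn2 and Amotl2 (left) and for Tagln, Myl9, Tpm1, Actb and Vcl (right); filled points were called. Ccn2 ends at 0.67 at 48 h while Tagln ends at -5.18, and the triangle gives the bound of Myl9, -4.69, from 0 counts at 48 h.

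Of the genes of the contractile apparatus, Myl9 was first called lower at 12 h and Tagln and Tpm1 at 24 h. Tagln and Myl9 fell the farthest. Tagln (ENSMUSG00000032085.5, chromosome 9 from 45929619 to 45936058, minus strand) had 3.84/4.28 CPM in Mock, 7.49/7.48 at 0 h, 4.57/6.25 after 0.5 h, 6.80/6.58 after 1 h, 7.02/6.73 after 6 h, and 5.66/7.35 after 12 h. At 24 h it had 1.57 and 2.12, and at 48 h 0.162 and 0.202. From 0 to 12 h every library lay above both of Mock, and at 24 and 48 h every library lay below them. In edgeR the log2 fold change of Tagln was 0.87 ± 0.19 (padj = 0.000959) at 0 h against Mock, -0.20 ± 0.18 (padj = 0.352) at 12 h against 0 h, -2.02 ± 0.23 (padj = 2.65e-08) at 24 h and -5.18 ± 0.35 (padj = 6.22e-12) at 48 h. The steps were -1.82 ± 0.23 (padj = 6.52e-07) from 12 to 24 h and -3.16 ± 0.48 (padj = 7.01e-06) from 24 to 48 h. The 48 h libraries held 2 and 2.63 expected counts, 5 after rounding, against 206 at 0 h, a ratio of 0.0264 with an exact 95% interval of 0.00847 to 0.0626.

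Myl9 (ENSMUSG00000067818.6, chromosome 2 from 156775420 to 156781658, plus strand), whose promoter stretch with a CArG box is given above, had 46 and 38 counts at 0 h and 0 in both libraries at 48 h. Its counts were 30/23 in Mock, 27/29 after 0.5 h, 40/42 after 1 h, 48/40 after 6 h, 13/10 after 12 h, and 9/2 after 24 h. The libraries from 12 h on were all below those before 12 h. The log2 fold change of Myl9 in edgeR was 0.08 ± 0.29 (padj = 0.860) at 6 h against 0 h, -1.70 ± 0.37 (padj = 0.000392) at 12 h and -2.73 ± 0.43 (padj = 5.64e-06) at 24 h. From 6 to 12 h it was -1.78 ± 0.37 (padj = 0.000342). At 48 h Myl9 was at least 25.8-fold lower than at 0 h and at least 3.79-fold lower than at 24 h, with the 0 counts of the group set to a floor of 3 (edgeR, padj = 1.93e-08 and 0.00205). The 24 to 48 h call of Myl9 was lost without 24 h replicate 1, the library of 9 counts (padj = 0.0760 in edgeR). Without the same library the step from 12 to 24 h, otherwise -1.03 ± 0.53 (padj = 0.119), was -2.47 (padj = 0.0119).

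Tpm1 (ENSMUSG00000032366.15, chromosome 9 from 67022590 to 67049406, minus strand), the abundant member of the contractile group, changed by less than Tagln and Myl9. Its level was 84.8/78.6 CPM in Mock, 96.4/92.1 at 0 h, 78.8/84.4 after 0.5 h, 87.3/78.3 after 1 h, 79.8/79.4 after 6 h, 68.1/68.3 after 12 h, 53.1/53.7 after 24 h, and 58.5/53.4 after 48 h. The libraries of 0 h were the highest and those of 24 and 48 h the lowest. Tpm1 had a log2 fold change in edgeR of -0.82 ± 0.06 (padj = 3.63e-11) at 24 h and -0.75 ± 0.06 (padj = 1.75e-10) at 48 h. At 12 h it was -0.47 ± 0.06 (padj = 5.06e-07), below the fold threshold. The deposited table gives 1 value per gene, so that the tropomyosin isoforms made from Tpm1 are not told apart.

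Cnn1 (ENSMUSG00000001349.5, chromosome 9 from 22099216 to 22109630, plus strand) and Acta2 (ENSMUSG00000035783.9, chromosome 19 from 34241090 to 34255590, minus strand) were too low for the fit across genes. Cnn1 had 2 and 1 counts in Mock, 6/4 at 0 h, 4/4 after 0.5 h, 7/10 after 1 h, 10/6 after 6 h, 6/2 after 12 h, 2/2 after 24 h, and 3/1 after 48 h. The 3 libraries with 7 to 10 counts were of 1 and 6 h. Its ratio at 1 h to 0 h was 1.93 (exact 95% interval 0.836 to 4.72) and that at 24 h to 0 h 0.449 (0.103 to 1.56). Both intervals included 1. The summed counts were 17 at 1 h and 16 at 6 h, against 3 in Mock and 4 at 24 and at 48 h. Differences of 1 and 6 h from Mock, 24 h and 48 h were not tested. Acta2 had 1 to 3 counts in 11 libraries and 0 in the other 5, among them both of 24 h.

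**Figure D3:**
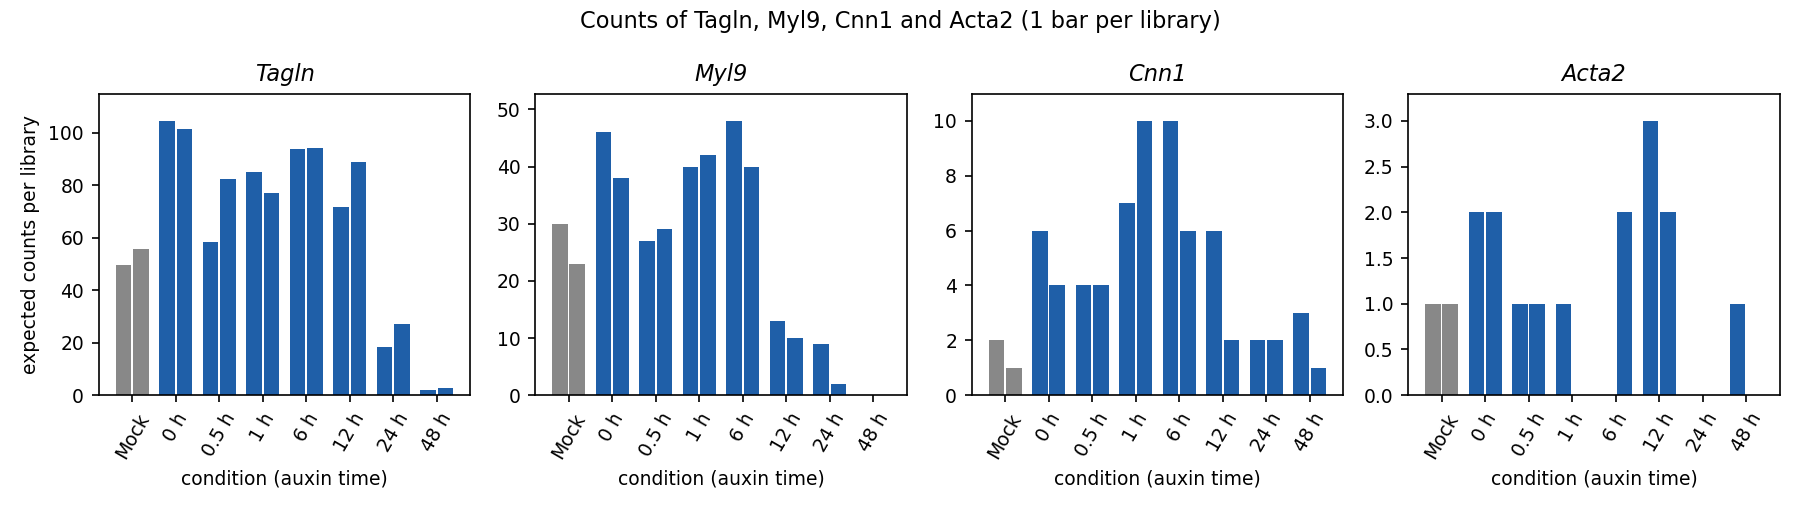
Expected counts per library (vertical axes, linear from 0; 1 bar per library, Mock in grey) of Tagln, Myl9, Cnn1 and Acta2 by condition. Tagln falls from 104.52 and 101.49 counts at 0 h to 2 and 2.63 after 48 h and Myl9 from 46 and 38 to 0, whereas Cnn1 stays at 10 or fewer and Acta2 at 3 or fewer counts in every library.

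Actb and Vcl, the cytoskeletal genes that every adherent cell uses, fell from 12 h on and stayed low. Actb (ENSMUSG00000029580.14, chromosome 5 from 142903115 to 142906754, minus strand) had 2174/2140 CPM in Mock, 2054/2072 at 0 h, 1877/1831 after 0.5 h, 1910/1974 after 1 h, 1723/1667 after 6 h, 1247/1319 after 12 h, 1039/967 after 24 h, and 944/993 after 48 h. From 6 h on every library was below all earlier ones, and those of 24 and 48 h overlapped. The log2 fold change of Actb in edgeR was -0.28 ± 0.04 (padj = 1.41e-06) at 6 h, under the fold threshold, -0.69 ± 0.04 (padj = 2.55e-13) at 12 h, -1.04 ± 0.04 (padj = 3.88e-17) at 24 h and -1.09 ± 0.04 (padj = 3.93e-17) at 48 h. Duplicated reads had been removed before counting, and how far this lowered the counts of so abundant an mRNA was not tested. Actg1, the other cytoplasmic actin, had a log2 fold change of -1.32 (SE 0.03) at 24 h.

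Vcl (ENSMUSG00000021823.10, chromosome 14 from 20929398 to 21033676, plus strand), whose promoter stretches with GGAATG and with a CArG box are given above, had 217/219 CPM in Mock, 210.1/209.6 at 0 h, 192/189.5 after 0.5 h, and 189/193 after 1 h. It then had 141/143 after 6 h, 83.0/87.6 after 12 h, 78.1/84.4 after 24 h, and 92.2/90.5 after 48 h. The 6 h libraries lay between the earlier and the later ones and overlapped neither. In edgeR the log2 fold change of Vcl was -0.56 ± 0.04 (padj = 1.08e-10) at 6 h, just under the fold threshold, -1.30 ± 0.04 (padj = 6.13e-17) at 12 h, -1.37 ± 0.04 (padj = 5.44e-18) at 24 h and -1.20 ± 0.04 (padj = 9.18e-17) at 48 h. The step from 6 to 12 h was -0.74 ± 0.05 (padj = 5.16e-12), and those after it were under the threshold.

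The first call downward was at 6 h for Ccn1 and Ccn2, at 12 h for Myl9, Actb and Vcl, and at 24 h for Tagln and Tpm1. These times follow from the fold threshold and no difference in timing was tested, since at 6 h the values of Ccn2, called, and Vcl, not called, were -0.63 ± 0.09 and -0.56 ± 0.04. Vinculin and beta-actin had their calls at each of 12, 24 and 48 h, while Ccn2 turned from a fall at 24 h to a rise at 48 h. With scaling by the reads each library had from the Drosophila genome (dm6), whose source in these libraries was not given, the median of all genes shifted by 0.38 at 0 h against Mock, by 0.19 at 1 h, by -0.56 at 12 h, by -0.23 at 24 h and by -0.18 at 48 h against 0 h. With that scaling Ccn2, Tpm1 and Myl9 were also called upward at 0 h against Mock, Ccn2, Tagln and Tpm1 also downward at 12 h, and Ccn1 (-0.64) also downward at 48 h, and the rise of Ccn2 at 48 h (0.48) and that of Ccn1 from 6 to 12 h (0.39) were under the thresholds.

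The other genes of the 2 systems did not all move with the members. Among 26 tested MRTF-SRF target genes other than the members, 6 fell against 2 that rose at 12 h, 12 fell against 1 that rose at 24 h, and 12 fell against 2 that rose at 48 h against 0 h. Their median log2 fold change was -0.29, -0.52 and -0.50 at these times, beside 0.00, -0.02 and 0.01 over all genes. Among all tested genes 13.2%, 20.3% and 17.6% fell, and 14.8%, 20.2% and 17.9% rose. Zyx, which encodes the adhesion protein zyxin, had 26.4 ± 1.42 CPM (SD, n = 2) at 0 h and 3.71 ± 0.0306 after 24 h, a log2 fold change of -2.83 (SE 0.14). Cnn2 (calponin 2) fell from 66.9 ± 1.09 to 8.01 ± 1.76 CPM at 48 h, by 3.07 on the log2 scale. Wdr1, a cofactor of cofilin in the disassembly of actin filaments, had a log2 fold change of -1.47 at 48 h, and Tpm2, a second tropomyosin gene, one of -1.51 at 24 h. Lima1 rose at 6, 12, 24 and 48 h, against the direction of most of the list.

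Of SRF itself and its cofactors, Srf fell at 6, 12, 24 and 48 h, and Mrtfb at 12, 24 and 48 h, the only 2 of 10 tested genes of this list besides Fhl2 (24 h) that fell. Srf, which encodes the DNA-binding factor, had 55.4 ± 4.18 CPM at 0 h, 29.6 ± 2.38 after 6 h and 23.6 ± 0.0214 after 12 h, a log2 fold change of -0.90 (SE 0.07) at 6 h and -1.23 (SE 0.08) at 12 h. Mrtfb, the coactivator MRTF-B, went from 16.8 ± 0.337 to 7.41 ± 1.04 CPM at 24 h (-1.18, SE 0.13). Mrtfa had 20.2 ± 1.08 CPM at 0 h and 29.6 ± 0.934 after 24 h and was not called. Of the ternary complex factors, which bind SRF as well, Elk3 rose at 12 h by 1.06 and Elk4 at 24 h by 0.72 on the log2 scale, and both calls were lost with dm6 scaling.

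On the YAP/TAZ side neither coactivator was called lower at any auxin time. Yap1 had 155 ± 3.76 CPM at 0 h and 186 to 192 in the means of 12, 24 and 48 h and was not called, and Wwtr1, which encodes TAZ, rose from 45.4 ± 0.166 to 71.5 ± 1.18 CPM at 12 h (0.65, SE 0.06). Tead1, which encodes a DNA-binding partner, fell at 12 h and 24 h (-1.33, SE 0.05, at 24 h), and Tead3 rose at 6, 12, 24 and 48 h from 2.82 ± 0.971 CPM at 0 h to 6.57 ± 0.209 after 6 h. Of 21 tested genes of these factors and the Hippo pathway, 2 rose against 3 that fell at 6 h, and 5 against 7 at 12 h. At 24 h 4 rose against 5 that fell, and at 48 h 4 rose against 2 that fell. The shares over all genes at 6, 12, 24 and 48 h were 10.1%, 14.8%, 20.2% and 17.9% higher. Those lower were 5.7%, 13.2%, 20.3% and 17.6%. With dm6 scaling the calls upward at 12 h, Wwtr1 among them, were lost and 9 of the 21 fell. That scaling gave 4 higher and 8 lower at 24 h and 3 higher and 5 lower at 48 h. Lats2, a Hippo kinase whose own gene is a YAP target, had 8.10 ± 0.568 CPM in Mock, 6.53 ± 0.617 at 0 h and 7.91 ± 0.892 after 1 h. It then had 1.90 ± 0.0667 after 6 h, 0.994 ± 0.0846 after 24 h and 5.61 ± 0.870 after 48 h. The mean of Lats2 was highest in Mock, where Ccn1 was below its 0 h level, but Lats2 was not called at 0 h against Mock (-0.31, SE 0.16). Amotl1, a paralog of Amotl2, rose at 12, 24 and 48 h, with a log2 fold change of 1.22 at 24 h.

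Of 18 tested YAP/TAZ target genes other than the members, 2 rose against 4 that fell at 6 h, 4 rose against 4 that fell at 12 h, 6 rose against 5 that fell at 24 h, and 5 rose against 3 that fell at 48 h, and their median was 0.36 at 24 h. Of all genes 10.1%, 14.8%, 20.2% and 17.9% rose and 5.7%, 13.2%, 20.3% and 17.6% fell at these times, and with dm6 scaling 2 of the 18 were higher and 9 lower at 12 h. At 0 h against Mock 6 of the 18 rose and 4 fell, where 5.19% of all genes rose and 4.24% fell. At 1 h against 0 h 1 of the 18 rose (Axl) and 0 fell, where 0.666% of all genes rose and 0.541% fell. The median of the 18 at 1 h was -0.004. This list shares Amotl1, Lats2 and Ptpn14 with the preceding one. Ajuba, which encodes a LIM protein that binds LATS kinases, had 175 ± 1.31 CPM at 0 h, 73.7 ± 2.20 after 6 h, 96.5 ± 2.43 after 12 h, 47.9 ± 1.70 after 24 h and 115 ± 5.20 after 48 h. Nt5e (CD73) fell at 6, 12, 24 and 48 h (-2.56, SE 0.38, at 12 h), and Nuak2, a kinase of the AMPK family, rose at each of these times (1.27, SE 0.20, at 24 h). Ankrd1, a YAP target often used as a readout, had at most 0.083 CPM in the mean of any condition and was not tested.

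**Figure D4:**
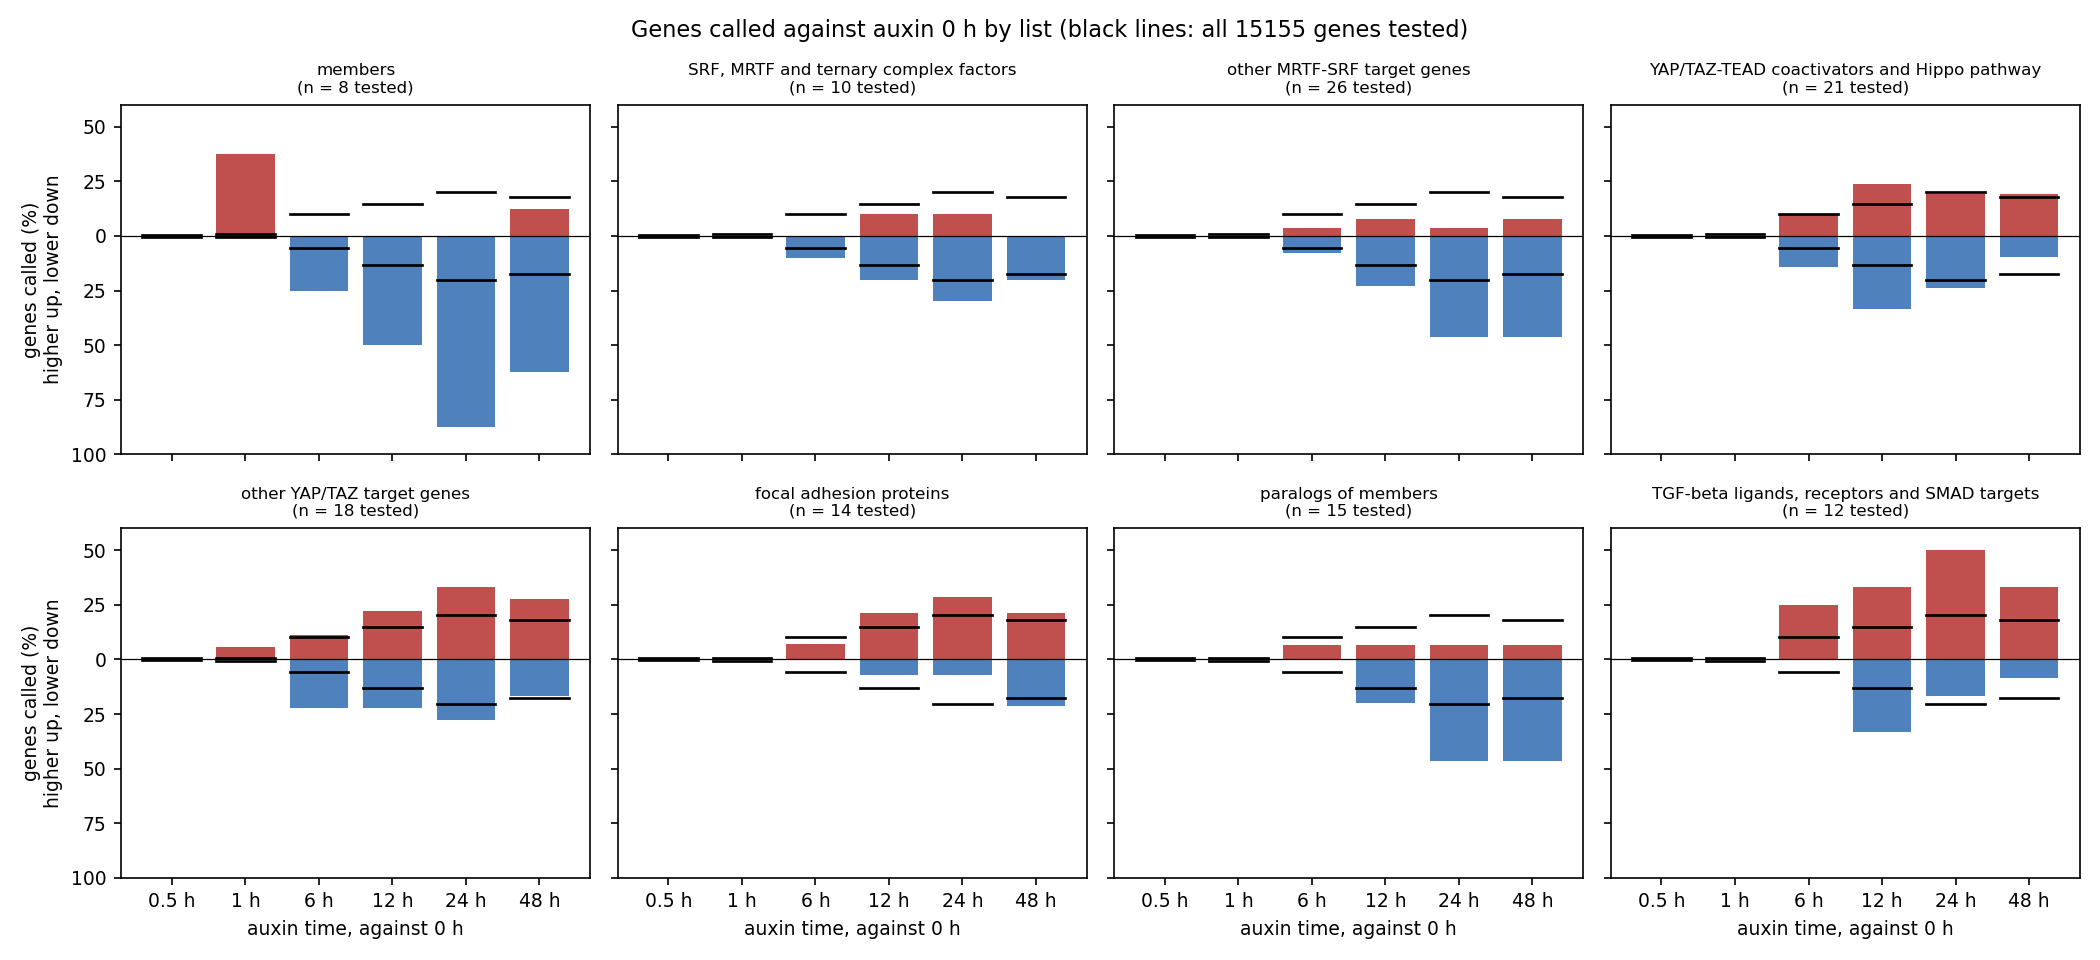
Percent of the tested genes of each list that were called higher (red, upward) or lower (blue, downward) against 0 h at each auxin time, for the members and 7 lists; black lines give the percent of all 15155 tested genes. The members reach 7 of 8 lower at 24 h and the other MRTF-SRF targets 12 of 26, where 20.3% of all genes were lower, while the other YAP/TAZ targets have 6 higher and 5 lower of 18.

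Of 14 tested focal adhesion genes other than Vcl, 3 rose against 1 that fell at 12 h, 4 rose against 1 that fell at 24 h, and 3 rose against 3 that fell at 48 h, where 14.8%, 20.2% and 17.9% of all genes rose and 13.2%, 20.3% and 17.6% fell. With dm6 scaling 1 was higher and 5 were lower at 12 h, and 2 were higher and 3 lower at 24 h. Tns1 (tensin 1) went from 24.7 ± 2.28 CPM at 0 h to 116 ± 4.20 after 24 h (2.23, SE 0.07) and Pxn (paxillin) from 41.4 ± 1.02 to 82.0 ± 3.29 (0.99, SE 0.06), opposite in direction to Vcl. Itgav (integrin alpha V) rose by 0.83 and Tln2 (talin 2) had a log2 fold change of -1.49 at 48 h.

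Of 15 tested paralogs of the members, 7 fell against 1 that rose at 24 h and at 48 h alike, with medians of -0.56 and -0.69. Over all genes 20.3% and 17.6% fell and 20.2% and 17.9% rose at these times. The list is not separate from those above. Actg1, Cnn2, Myl6, Tpm2 and Tpm4, which fell at both times, are also on the list of MRTF-SRF targets, and Amot and Amotl1 on that of the Hippo pathway. Cnn2, Tpm2 and Actg1, described above, were among those that fell, and Amotl1 was the one that rose. Of 12 tested genes of TGF-beta ligands, receptors and SMAD targets, a pathway that also acts on Ccn2, Tagln and Acta2 in other cells, 4 rose and as many fell at 12 h, and 6 rose against 2 that fell at 24 h, where 20.2% of all genes rose and 20.3% fell. Smad3 went from 4.37 ± 0.704 CPM at 0 h to 28.6 ± 1.66 after 24 h (2.71, SE 0.14), Tgfbi from 12.4 ± 1.86 to 77.3 ± 2.40 (2.64, SE 0.08) and Ltbp3 from 2.50 ± 0.618 to 14.3 ± 0.785 (2.51, SE 0.21), while Tgfb1 fell by 1.63 on the log2 scale. With dm6 scaling 19 of the 26 other MRTF-SRF targets fell at 12 h, and the median of the other YAP/TAZ targets at 12 h was -0.57 in place of -0.01.

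Markers of other cell types moved too, and their part in the results on the members was not tested. Of all genes 10.1%, 14.8%, 20.2% and 17.9% rose and 5.7%, 13.2%, 20.3% and 17.6% fell at 6, 12, 24 and 48 h. Of the 8 tested markers of primitive endoderm, 5 rose at 48 h (Dab2 by 1.33, Col4a1 by 1.18 and Lama1 by 1.03 on the log2 scale), and their summed level was 936 to 948 CPM at 0 h and 1217 to 1248 at 48 h. The 9 smooth muscle markers, which hold Tagln, Cnn1 and Acta2, summed to 41.6 to 42.9 CPM in Mock, 64.1 to 66.4 at 0 h, 39.3 to 41.7 at 24 h and 45.7 to 46.6 at 48 h. Of the 5 tested, Smtn (smoothelin) and Tagln fell at 24 h, Smtn with a log2 fold change of -0.77 (SE 0.08), and Lmod1 (leiomodin 1) rose from 0.255 ± 0.0565 to 2.79 ± 0.384 CPM. Of the mesendoderm markers, 3 of 6 were tested, and at 24 h Gsc rose by 3.50 and Eomes by 0.67 (log2), while Evx1 fell from 0.550 ± 0.473 CPM to 0.0393 ± 0.0556 (with dm6 scaling 1 of the 3 rose and 1 fell). Of the 12 mESC markers Zfp42 and Utf1 fell at 24 h (Zfp42 by 1.54), and Utf1 fell by 1.47 at 6 h. With dm6 scaling 6 of the 12 mESC markers were lower at 12 h and 5 at 24 h, in place of 1 and 2. Among the fibroblast markers Pdgfrb rose by 3.28 and Mmp2 fell by 0.99 at 24 h, and Thy1 rose by 0.95 at 6 h. Of the trophectoderm markers 5 of 8 were tested, and Krt8 rose by 0.89 at 12 h, Tfap2c by 0.74 at 24 h, and Krt7 fell by 0.75 at 48 h, of which the rises were lost with dm6 scaling.

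The genes with the pattern most like a member were found by the Pearson correlation of log2 CPM over the 16 libraries among 9853 genes of at least 5 CPM on average. The libraries of a condition share their treatment, so these values describe 8 conditions more than 16 independent points. Most like the mean profile of the 8 tested members were Ska1 (0.991), Dnajc8 (0.980), Eprn (0.970), Got2 (0.963) and Fsd1l (0.963). For Ccn1 they were Polb (0.932), Ajuba (0.912) and Nr0b1 (0.906), for Ccn2 Arf2 (0.945), Cnbp (0.893) and Pias2 (0.880), and for Amotl2 Wwc1 (0.938), Aspg (0.920) and Fnip1 (0.917). For Tagln they were Fbxo2 (0.978), Eno1 (0.972) and Tspo (0.964), for Myl9 Lsm4 (0.977), Mpnd (0.973) and Klc3 (0.956), and for Tpm1 Hnrnpab (0.972), Hmgcs1 (0.963) and Abracl (0.961). For Actb they were Dctn1 (0.990), Eif1ax (0.990) and Actr10 (0.988), and for Vcl Usp40 (0.989), Bccip (0.988) and Fam92a (0.988). Of these, Ajuba was on the list of other YAP/TAZ targets and Wwc1 on that of the Hippo pathway. Among the members the same measure was 0.857 for Ccn1 with Ccn2 and 0.950 for Actb with Vcl, while it was 0.119 for Ccn1 with Tagln and -0.33 for Amotl2 with Actb. By rank (Spearman) the likeness of Tspo to Tagln was 0.571.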

How the data were processed

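Poly(A) RNA-Seq libraries of mESCs with a RUVBL2 degron, 16 in all, were grouped by condition and replicate number as the sample labels give them. Reads had been trimmed (cutadapt 1.18), aligned to mm10 (STAR 2.7.3a), freed of duplicates and quantified against GENCODE M23 (RSEM 1.3.1), with versions from the submitters' processing notes. For strand, the setting was not given in the sources used here. RSEM's expected counts per gene, deposited by the authors without normalization, had decimals in 6.76 to 7.94% of values per library. The authors also deposited TPM, which adjusts for gene length and library total. A further deposited table with log2 fold changes and p-values of the authors' own comparisons (DESeq2 1.24.0) stayed unused.

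After rounding of the expected counts, TMM normalization and filterByExpr (15155 of 55335 genes kept), edgeR 4.0.16 (R 4.3.3) fitted 1 quasi-likelihood model with condition as its term to the 16 libraries. The 10 contrasts set 0 h against Mock, every auxin time against 0 h, and 12 against 6, 24 against 12 and 48 against 24 h. The Benjamini-Hochberg adjustment (padj) ran over all tested genes, and the SE is the absolute log2 fold change over the square root of F. Lists were described by calls and medians, with no set test. Intervals of ratios of summed counts are exact (Clopper-Pearson). Alternatives were RLE, total count and dm6 scaling (by the dm6 reads that the study lists for each library), other filters, DESeq2 1.42.0, limma 3.58.1 on log2(TPM + 1) or log2(TPM + 0.1), the replicate number as a block, and leaving out each library. The fit was tested on simulated data with known fold changes.

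The members and the gene lists were chosen with earlier results of these data known. Besides the members, the text names up to 4 called genes per list, those with the largest change against Mock or 0 h and at least 5 CPM in 1 condition, the 5 and 3 genes most alike in pattern, and defining markers. Lima1, Lmod1, Evx1, Fjx1, Asap1, Axl, F3, Tgfb2, Yap1, Wwtr1, Mrtfa, Fhl2, Ankrd1 and Ptpn14 were named after their values were seen. Positions are from GENCODE M21 on GRCm38, matched by gene ID. A further gene list is not reported here.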

Additional observations from a re-analysis of the deposited data

Results flagged for a closer look

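In 9 cases a member's change against 0 h differed between neighbouring auxin times by the edgeR test of the difference itself, at an adjusted p under 0.05 and a fold over 1.5. With 2 libraries per condition, no condition was large enough to test a single library as an outlier.

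Between 6 and 12 h the difference was 0.93 for Ccn1, -1.78 for Myl9 and -0.74 for Vcl on the log2 scale. Between 12 and 24 h it was -1.05 for Ccn2 and -1.82 for Tagln. Between 24 and 48 h it was 1.68 for Ccn1, 2.04 for Ccn2 and -3.16 for Tagln, and Myl9 was at least 3.79-fold lower at 48 h.

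Ccn2 was called in opposite directions on either side of the last step, with -1.37 at 24 h and 0.67 at 48 h against 0 h. Ccn1 and Ccn2 were also called in opposite directions at 1 and 6 h, a step that was not tested itself. Between 24 and 48 h Tagln moved from -2.02 to -5.18, so that Ccn2 and Tagln parted over that step. Lats2 and Ajuba, which are also YAP targets, had log2 fold changes of -2.73 and -1.87 at 24 h and -0.21 and -0.61 at 48 h, values that were picked after they were seen. Of the 18 other YAP/TAZ targets tested, 3 rose from 24 to 48 h (Ajuba, Fjx1 and Lats2) and 4 fell (Asap1, Axl, F3 and Tgfb2). Of all genes 12.2% rose and 12.3% fell over that step. The step of Ccn1 from 6 to 12 h and that of Myl9 from 24 to 48 h each rest on single libraries, without which the adjusted p in edgeR was 0.150 to 0.169 and 0.0760.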

How the results depend on the processing

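Of 150 counts of members called under alternatives, 140 stayed within 1.5 times the reported count and in no case did a called member change direction. With dm6 scaling 6 members rose at 0 h against Mock, 7 fell at 12 h against 0 h, and 5 fell at 12 h against 6 h, in place of 3, 4 and 3 called. With limma on TPM 1 member was called at 1 h under each pseudocount and filter, in place of 3, and with a pseudocount of 0.1 there were 4 at 24 h against 12 h. Leaving out 1 library gave 1 to 2 members at 1 h and 1 to 2 at 6 h. Over all genes dm6 scaling moved the share of calls that were higher from 55.0 to 95.0% at 0 h against Mock, from 62.2 to 47.0% at 0.5 h, from 55.2 to 91.5% at 1 h, from 52.9 to 11.7% at 12 h, from 49.9 to 34.0% at 24 h and from 50.3 to 34.2% at 48 h against 0 h, and from 47.3 to 3.58% and from 45.5 to 83.4% in the steps to 12 and 24 h.

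Of 1186 member fold changes, 1132 kept direction and side of the threshold, 21 lost a call, 14 gained one and 19 changed sign, none of the last called in either fit. DESeq2 gave no adjusted p for 14 others. The sign changes under dm6 scaling were 0.34 for Vcl and 0.33 for Actb at 0 h against Mock, 0.055 for Vcl, 0.10 for Actb, 0.029 for Tagln and 0.0068 for Tpm1 at 1 h, -0.49 for Amotl2 at 12 h and -0.026 at 48 h, -0.23 for Ccn2 and -0.30 for Amotl2 at 12 h against 6 h, and 0.28 for Vcl at 24 h against 12 h. Vcl in that last step was 0.0071 in limma with a pseudocount of 1, with and without the filter, and 0.0073 with 0.1. Leaving out 1 library gave -0.10 to 0.23 for Myl9 at 6 h, -0.28 to 0.10 for Tagln at 12 h against 6 h, -0.11 to 0.0055 for Vcl at 24 h against 12 h, and -0.00078 to 0.13 for Tpm1 at 48 h against 24 h. Replicate numbers did not pair the libraries, since the correlation of same-numbered deviations over 28 pairs of conditions ran from -0.12 to 0.17, with 1 above 0.1. With the replicate block 3 members were called at 24 h against 12 h in place of 2, as Ccn1 was called (-0.77, adjusted p = 0.0405 in edgeR), and it changed no other call. Depth limits Acta2, Cnn1, Myl9 and late Tagln.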
